A study of Arabidopsis thaliana with 12 samples.

Results

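The genes of the 26S proteasome were examined for NAD+-capped RNA in Arabidopsis thaliana seedlings. The members were 44 genes taken by their AGI gene ID from the 20S core (PAA to PBG) and the 19S regulatory particle (RPT and RPN), of 22337 genes with a value in the table of all reads. They comprised 23 core genes (11 named as alpha subunits, 10 as beta subunits and 2 without a subunit name) and 21 regulatory particle genes (8 RPT, 6 RPN and 7 without a subunit name). A missing tagged value counted as 0. All 44 genes were listed in the table of tagged reads.

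The proteasome is the protease that destroys proteins marked with ubiquitin in the cytosol and nucleus. Its core is a barrel of stacked rings, in which the outer alpha subunits gate the entrance and some of the inner beta subunits carry the proteolytic sites. The regulatory particle caps the barrel: the RPT subunits form a ring of ATPases that unfolds substrates, and the RPN subunits bind substrates, remove ubiquitin and hold the particle together. In plants the pathway sets the level of many regulators of hormone and light signalling. An NAD+ cap is a nicotinamide adenine dinucleotide at the 5′ end of an RNA, in place of the usual methylguanosine cap.

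In the assay (NAD tagSeq) the enzyme adenosine diphosphate ribosylcyclase (ADPRC) allows a synthetic tag RNA to be linked to NAD+-capped RNA. RNA molecules are then read directly on a Nanopore instrument. A tagged share below is a share of reads, not a measured fraction of capped molecules. The seedlings were wild-type Col-0, aged 12 days, grown at 23 °C in cycles of 16 h light and 8 h dark on sucrose-containing plates, and received no treatment. Poly(A) RNA with ADPRC and enriched for the tag was read in 3 libraries, and the matching control without ADPRC, also enriched, in 3 libraries. Without enrichment there were 3 poly(A) libraries with ADPRC and 1 without it, and from total RNA 1 enriched library with and 1 without ADPRC. Whole seedlings mix all cell types, so fewer cells of a type and less RNA per cell cannot be told apart. Nothing in the labels ties the replicates to separate cultures, and p-values here measure the spread between libraries, which may be technical.

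Libraries held 1175516 to 1233999 reads in the enriched group with ADPRC, 390009 to 948433 in its control and 378322 to 619122 in the unenriched group with ADPRC. The unenriched control had 434742 reads, and from total RNA there were 6479 reads with and 1237 without ADPRC. The share of all reads that carried the tag was 23.9%, 20.9% and 14.1% in enriched libraries 1, 2 and 3 with ADPRC, library 3 being the lowest. It was 0.131% to 0.224% in the enriched control, 0.546% to 0.743% in unenriched libraries with ADPRC and 0.00207% in the unenriched control. The 4 markers of green shoot were read in every library and summed to 63774 to 85259 CPM (counts scaled to a common total of reads per library) over the poly(A) libraries. The 3 root markers summed to 1308 to 3246 CPM there and were lower in the enriched libraries with ADPRC (at most 1652) than in the unenriched ones (at least 2588). Their part in the results was not tested.

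The core and the regulatory particle differed in the share of their reads that carried the tag. In enriched libraries 1, 2 and 3 with ADPRC, the pooled tagged share of the 23 core genes was 24.8%, 25.3% and 18.0%, or 22.7% ± 4.09 (SD, n = 3), from 1141 tagged of 5058 reads. For the 21 regulatory particle genes it was 11.1%, 14.5% and 10.3%, or 12.0% ± 2.24 (SD, n = 3), from 438 of 3687 reads. The core was higher in each library and the groups did not overlap, with a difference of 13.7, 10.8 and 7.66 percentage points and a ratio of 2.23, 1.74 and 1.74. Over all genes the pooled share was 19.6% ± 5.00 (SD, n = 3), so that the core lay 0.849 to 4.40 percentage points above it and the regulatory particle fell 3.84 to 12.8 points below it. This contrast was named when the members were chosen, with earlier results of these data known, and has no test of its own.

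The difference was not carried by one kind of subunit in the core. Alpha genes had a pooled share of 22.9% ± 4.38 and beta genes of 22.4% ± 3.91 (SD, n = 3), and the difference between them changed sign between libraries. Within the regulatory particle, the RPT genes, which encode the ATPase ring, had 9.74% ± 1.81. The RPN genes had 12.4% ± 4.22, with 12.3%, 16.6% and 8.15% against 8.13%, 11.7% and 9.38% for RPT. The order of these named genes also changed in the third library. The 7 regulatory genes without a subunit name are in neither set, so the order covers the named genes only. Members that overlap no other listed gene gave a core minus regulatory difference of 10.6 percentage points, against 10.7 over all members. Without library 1, 2 or 3 the mean difference was 9.21, 10.7 and 12.2 points.

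**Figure D1:**
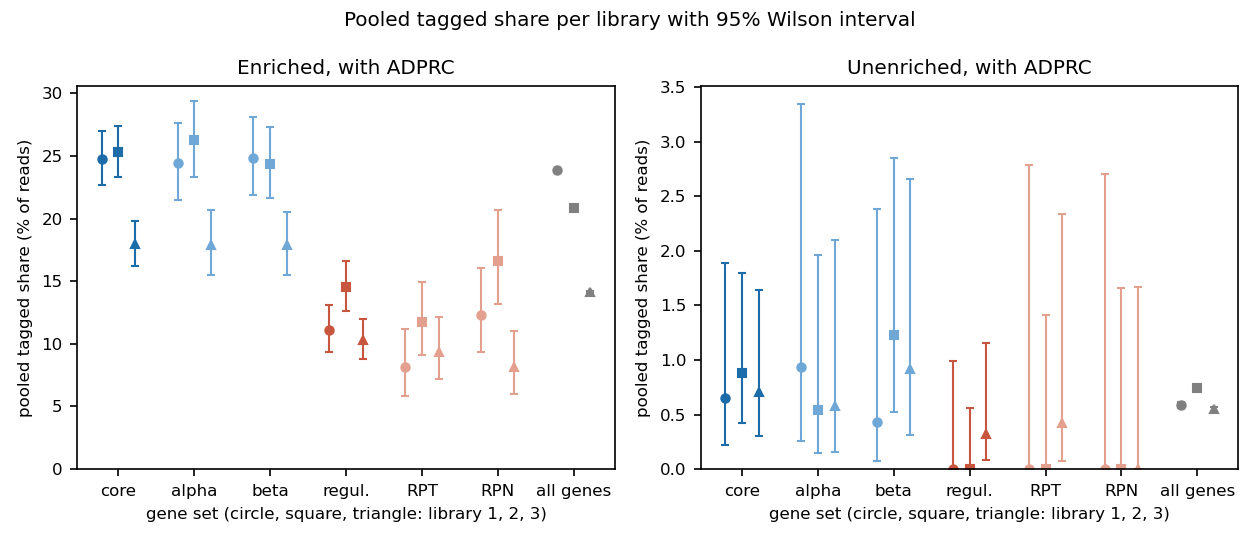
Pooled tagged share (percent of reads) of the core, its alpha and beta genes, the regulatory particle (regul.), its RPT and RPN genes, and all genes, per library (circle, square and triangle for libraries 1, 2 and 3) with 95% Wilson intervals, in enriched (left) and unenriched (right) poly(A) RNA with ADPRC; the vertical scales differ. In enriched RNA the core points lie between 18.0% and 25.3% and the regulatory points between 10.3% and 14.5%.

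The order was also seen before enrichment, at few reads. In unenriched libraries 1, 2 and 3 with ADPRC, core genes had 3 tagged of 463, 7 of 798 and 5 of 708 reads, and regulatory particle genes had 0 of 383, 0 of 683 and 2 of 627. Over the 3 libraries this was 15 of 1969 core reads, or 0.762% (95% Wilson interval 0.462% to 1.25%), and 2 of 1693 regulatory reads, or 0.118% (0.0324% to 0.430%). The core share was higher in each library. The intervals over the 3 libraries together did not overlap, while those of single libraries overlapped in each of the 3. They cover counting error only. Tagged reads without ADPRC give the background: 3 of 2510 core reads (0.120%, 0.0407% to 0.351%) and 3 of 2014 regulatory reads (0.149%, 0.0507% to 0.437%) in the enriched control, and 0 of 546 and 0 of 472 in the unenriched control. The regulatory share of unenriched RNA with ADPRC lay within the interval of the enriched control. That control was enriched and so is not the matching one. In the unenriched control, 0 of 472 regulatory reads gave an interval of 0% to 0.807%. Over all genes the unenriched control had 9 tagged of 434742 reads (0.00207%). Whether the 2 regulatory reads exceed background was not tested. Total RNA with ADPRC gave 1 tagged of 8 core reads and 0 of 3 regulatory reads, and total RNA without ADPRC gave 0 of 1 core read, too few to compare.

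Gene by gene, most core members were above the typical gene and most regulatory members below it. The median tagged share over 5494 genes with a mean of at least 20 CPM was 14.9%, with quartiles of 7.60% and 22.7%. Among members past that level, 22 core genes had a median of 23.0% and 21 of them were above the median gene, and 19 regulatory genes had a median of 9.92% and 5 were above it. By mean share, 14 core genes lay above the highest regulatory gene and 11 regulatory genes below the lowest core gene. AT3G26340 of the core and RPT5B and AT5G20000 of the regulatory particle were below the level; they had 10 tagged of 50, 5 of 58 and 2 of 48 reads.

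**Figure D2:**
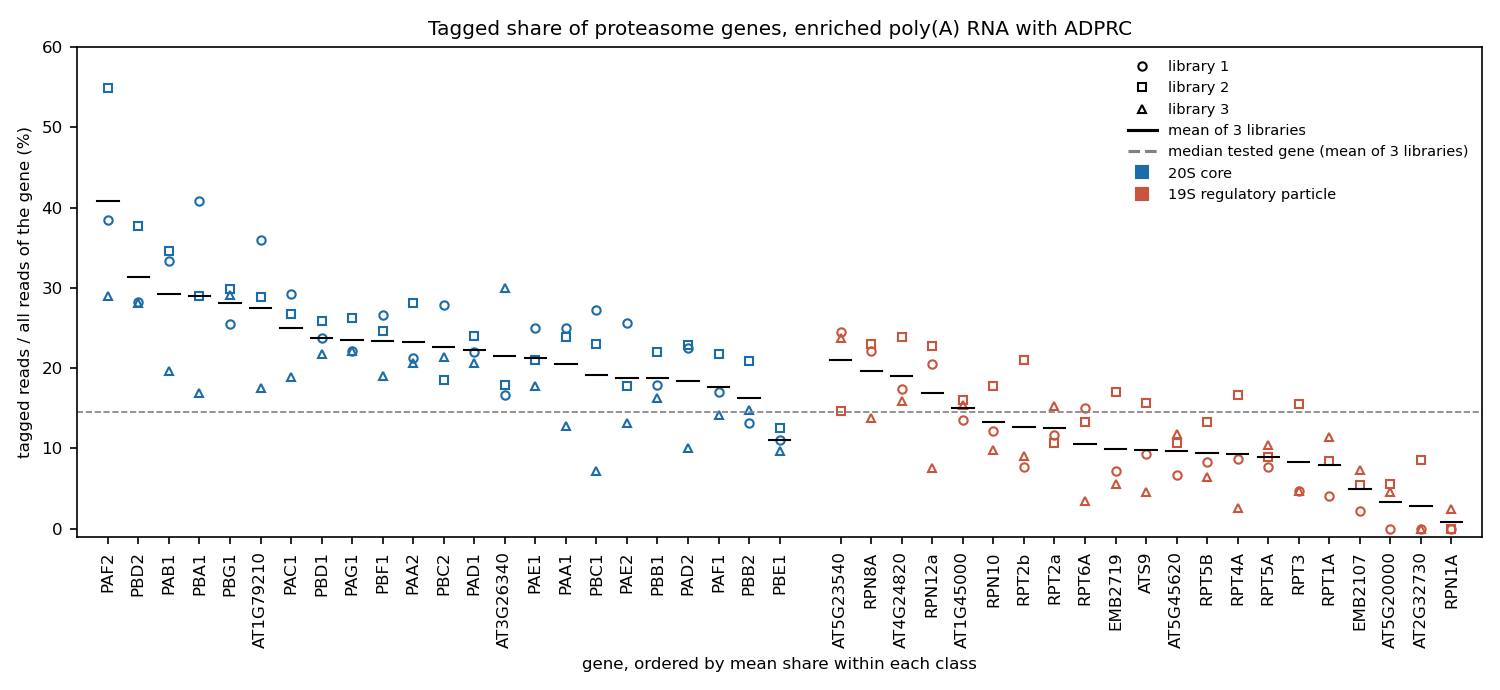
Tagged share (percent of each gene's reads) of the 44 genes in the 3 enriched poly(A) libraries with ADPRC, one symbol per library, with the mean as a bar and the median gene of the library, averaged over libraries, as a dashed line. PAF2 is the highest core gene at 40.8% and PBE1 the lowest at 11.1%; RPN1A is the lowest of all at 0.813%.

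The share was then tested relative to the library, as the log2 ratio of tagged to untagged reads minus the library's median over the 5494 genes, which removes the lower tagging of library 3. By limma (Benjamini-Hochberg adjusted p under 0.05 over those genes), 14 of 22 core genes were higher and 0 lower, against 26.6% of all tested genes that were higher. Of 19 regulatory genes 0 were higher and 3 lower, against 20.8% of all tested genes that were lower, so the share of regulatory genes called lower was not above that of genes at large. At an unadjusted p under 0.05 there were 15 core genes, all higher, and 3 regulatory genes, all lower, against 29.9% of all tested genes higher and 26.1% lower. The median log2 value was 0.78 in the core, -0.62 in the regulatory particle and -0.01 over all tested genes. The 14 were 7 of 11 alpha genes, 6 of 10 beta genes and AT1G79210, while all 7 RPT genes tested had values under 0, from -1.05 to -0.23, and none passed.

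The counts depended on the reference and on the library. Centred on the ratio of all tagged to all untagged reads in place of the median gene, 6 core genes were higher and 0 lower, and 0 regulatory genes were higher and 9 lower, against 14.4% of all tested genes higher and 32.7% lower. A count test on the recovered reads gave 5 core genes higher, 1 lower and 10 regulatory genes lower with edgeR, and 3, 0 and 2 with DESeq2; neither gave a regulatory gene higher. Of all tested genes, edgeR called 13.9% higher and 40.1% lower and DESeq2 13.0% higher and 18.9% lower. The edgeR fit also has the ratio of all tagged to all untagged reads as its reference. Its larger regulatory count came with more of all tested genes called lower. Without library 2 or library 3 the core count was 9 or 7 (21.3% and 21.8% of all tested genes higher), against 13 without library 1 (25.6%). AT5G23540 became the 1 regulatory gene called higher when library 2 was left out (log2 0.98, adjusted p = 0.0365 by limma).

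**Figure D3:**
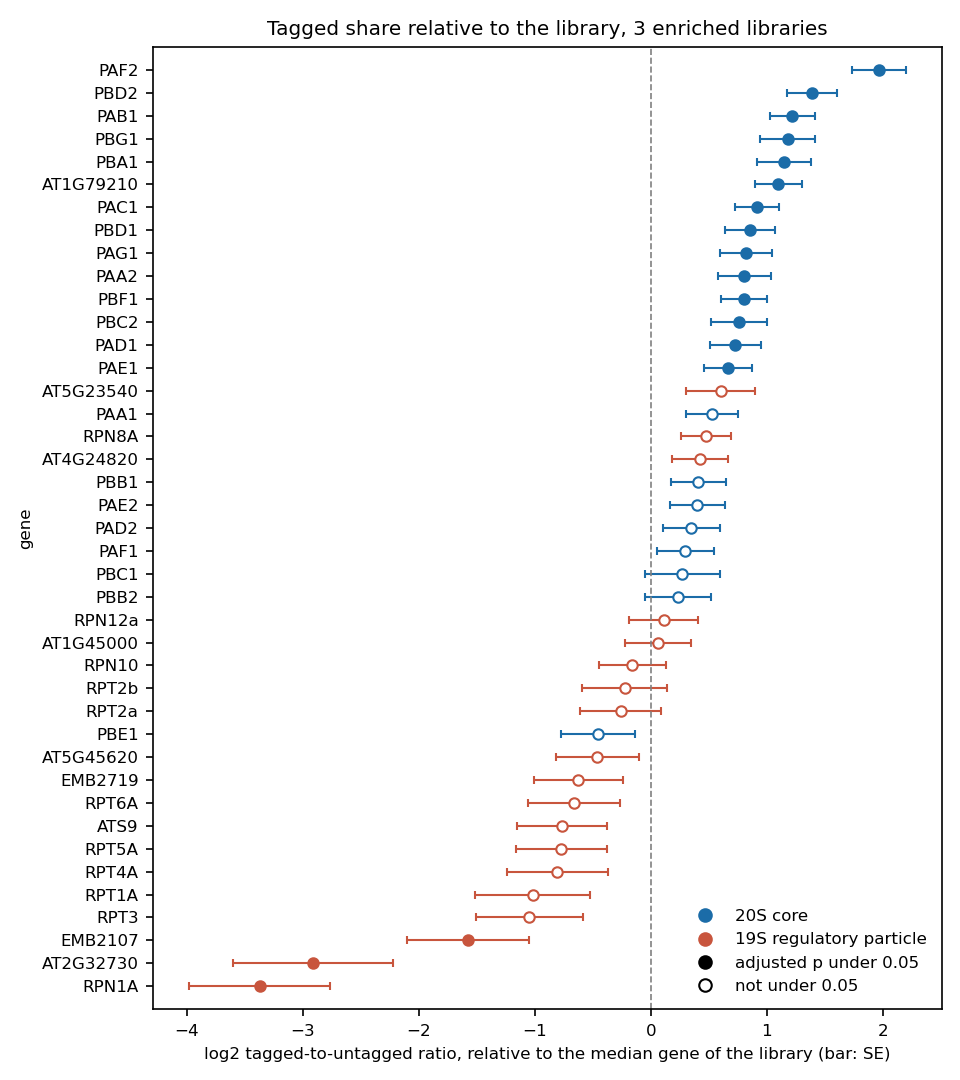
Tagged-to-untagged ratio of the 41 tested genes, as a log2 difference from the median gene of each library (mean of 3 enriched libraries with ADPRC, bars are SE); filled points have a limma adjusted p under 0.05. Core genes (blue) fill the upper end, to 1.97 for PAF2, and regulatory particle genes (red) the lower end, to -3.37 for RPN1A.

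Among the alpha subunits, PAF2 had the highest tagged share, with 10 of 26, 17 of 31 and 9 of 31 reads in libraries 1, 2 and 3. These are shares of 38.5%, 54.8% and 29.0%, or 40.8% ± 13.1 (SD, n = 3), and the relative log2 value was 1.97 (SE 0.24, adjusted p = 0.000699 by limma). PAF2 overlaps the listed gene GAMMA CA2, read at 109 CPM with a tagged share of 22.9%, so its reads cannot be assigned with certainty. Its paralogue PAF1, a pair described after its values were seen, had 17.0%, 21.7% and 14.1%, lower than PAF2 in each library (PAF1 minus PAF2 was -21.5, -33.1 and -14.9 percentage points). PAF1 did not pass the test (log2 0.30, SE 0.24, adjusted p = 0.338 by limma).

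PAB1 overlaps no other listed gene and had 16 of 48, 18 of 52 and 10 of 51 reads tagged. Its share was 33.3%, 34.6% and 19.6%, or 29.2% ± 8.32 (SD, n = 3), each above the share of all reads in the same library. The relative log2 value was 1.22 (SE 0.19, adjusted p = 0.00189 by limma), but DESeq2 on recovered reads gave an adjusted p of 0.0755. PAC1 and PAG1, the alpha genes with the most tagged reads, had 96 of 386 and 92 of 390 reads tagged. PAC1 had 29.3%, 26.7% and 18.9% (log2 0.91, SE 0.19, adjusted p = 0.00673 by limma). PAG1 had 22.1%, 26.3% and 22.1% (log2 0.82, SE 0.22, adjusted p = 0.0203 by limma), below the share of all reads in library 1 and above it in libraries 2 and 3; its call was lost without library 2 or library 3. The calls of PAC1 and PAG1 were also lost under the ratio centring (adjusted p = 0.0718 and 0.213), with edgeR (0.0973 and 0.206) and with DESeq2 (0.0604 and 0.118).

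Of the beta subunits, the 3 proteolytic kinds spread over most of the core's range. PBA1, the subunit with caspase-like activity, had 49 of 120, 36 of 124 and 23 of 136 reads tagged. These are 40.8%, 29.0% and 16.9%, or 28.9% ± 12.0 (SD, n = 3), with library 1 far above library 3; the relative log2 value was 1.15 (SE 0.23, adjusted p = 0.00591 by limma). PBB1 and PBB2, with trypsin-like activity, had 18.8% ± 2.95 and 16.3% ± 4.04 (SD, n = 3), and neither passed the test.

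PBE1, with chymotrypsin-like activity, had the lowest share of the core, at 11 of 100, 13 of 104 and 11 of 113 reads. These are 11.0%, 12.5% and 9.73%, or 11.1% ± 1.38 (SD, n = 3), below the share of all reads in each library. Its relative log2 value was -0.45 (SE 0.32, adjusted p = 0.265 by limma). Against the ratio of all tagged to all untagged reads, edgeR on recovered reads called PBE1 lower, at -0.95 with an adjusted p of 0.00534. PBE1 was the single core gene below the median gene. Both PBA1 and PBE1 were read at more than 80 CPM in each enriched library with ADPRC and overlap no other listed gene.

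PBD2, a structural subunit of the inner ring, had 13 of 46, 26 of 69 and 20 of 71 reads tagged, or 31.4% ± 5.47 (SD, n = 3), which was above all reads in each library. The relative log2 value was 1.39 (SE 0.22, adjusted p = 0.00185 by limma). Its listed neighbour ATSUV3 overlaps it but was read at 1.63 CPM. PBF1, a further structural subunit, overlaps AT3G60810 (12.1 CPM) and had 26.7%, 24.6% and 19.01% (log2 0.80, SE 0.20, adjusted p = 0.0131 by limma). That call was lost without library 3 (adjusted p = 0.0602), under the ratio centring (0.162), with edgeR (0.226) and with DESeq2 (0.124). PBC1 had 27.3%, 23.0% and 7.14%, or 19.1% ± 10.6 (SD, n = 3), and did not pass the test (log2 0.27, SE 0.32, adjusted p = 0.507 by limma).

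The order of paralogous genes of the same subunit held in each of the 3 libraries for some pairs and changed in others. The pairs were not tested, and with 3 libraries a constant order can arise by chance. PBD2 had a higher share than PBD1 in each of the 3 libraries (PBD1 minus PBD2 was -4.51, -11.8 and -6.43 percentage points), and PBB1 was higher than PBB2 in each, by 4.74, 1.20 and 1.51 percentage points. PBD1 and PBB2 overlap other listed genes. In PAA, PAD, PAE, PBC, RPT2 and RPT5 the sign of the difference changed between libraries. The mean difference there ran from -3.48 (PBC1 minus PBC2) to 3.80 points (PAD1 minus PAD2), and in each of these pairs it was smaller than its SD over the 3 libraries.

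In the regulatory particle, RPN1A, which encodes the large scaffold of the base that docks ubiquitin shuttle factors, was almost without tagged reads. It had 0 of 51, 0 of 36 and 1 of 41, or 0.813% ± 1.41 (SD, n = 3), while all reads of these libraries were tagged at 14.1% or more. The relative log2 value was -3.37 (SE 0.61, adjusted p = 0.00365 by limma); with so few tagged reads its size rests on the pseudocount, and a pseudocount of 2 reads gave -1.95 (adjusted p = 0.000705). AT2G32730 had 0 of 41, 3 of 35 and 0 of 50 reads tagged, with library 2 apart from the others. Its relative log2 value was -2.91 (SE 0.69, adjusted p = 0.0113 by limma), and -2.53 with an adjusted p of 0.0548 without library 3.

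EMB2107, which encodes the lid subunit RPN5, had 1 of 45, 2 of 37 and 5 of 68 reads tagged, or 4.99% ± 2.59 (SD, n = 3), below all reads in each library. The relative log2 value was -1.58 (SE 0.52, adjusted p = 0.0398 by limma). The call was lost without library 1 (-1.02, adjusted p = 0.13) and without library 2 (-1.61, adjusted p = 0.116), and with DESeq2 (-1.82, adjusted p = 0.0532). ATS9, which encodes the lid subunit RPN6, had 9.85% ± 5.55 (SD, n = 3) and did not pass (log2 -0.76, adjusted p = 0.136 by limma). RPN10, a ubiquitin receptor, had 13.3% ± 4.05 and a relative log2 value of -0.16 (adjusted p = 0.669 by limma).

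The regulatory genes with the highest share were AT5G23540, RPN8A and AT4G24820, at 21.0% ± 5.48, 19.6% ± 5.04 and 19.03% ± 4.25 (SD, n = 3). AT5G23540 had 13 of 53, 10 of 68 and 20 of 84 reads tagged, lower in library 2 than in libraries 1 and 3. RPN8A, which encodes a lid subunit that pairs with the deubiquitinating subunit, had 17 of 77, 17 of 74 and 13 of 94. None of the 3 passed the test, with log2 values of 0.60, 0.47 and 0.42. RPN12a, a lid subunit, had 20.5%, 22.7% and 7.53%, and its log2 value of 0.11 turned negative without library 2 (-0.12); it overlaps AT1G64510, read at 225 CPM with a tagged share of 17.0%.

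Of the RPT genes, RPT2a had the most reads in these libraries, with 9 of 77, 12 of 112 and 18 of 118 tagged, or 12.6% ± 2.39 (SD, n = 3). RPT5A had 7 of 91, 9 of 101 and 11 of 106, or 8.99% ± 1.34. RPT1A had 4.11%, 8.43% and 11.5% and RPT3 had 4.69%, 15.5% and 4.69%, so the highest library differed from gene to gene. The RPT share in library 1 (8.13%) was below that in libraries 2 and 3, while the share of all reads was highest there.

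Tagged reads of the members were frequent where ADPRC and enrichment were combined. Of 44 members, 41 were tagged in each of the 3 enriched libraries with ADPRC. In the enriched control 40 had no tagged read and 4 had one or more, and in unenriched libraries with ADPRC 30 had none and 14 had one or more. Of the 5494 genes with a mean of at least 20 CPM, 4737 were tagged in each of the 3 enriched libraries with ADPRC. A tagged read was found for 1336 of them in the enriched control and for 1966 in unenriched libraries with ADPRC. Such counts depend on level and depth and were not tested. In the comparison with and without ADPRC after enrichment, 23 of 23 core and 18 of 18 regulatory genes tested had higher tagged levels by limma, against 96.7% of all 7634 genes tested, so the count is that of genes at large. RPN1A, AT2G32730 and AT5G20000 had too few libraries with tagged reads to be tested. The test passes most genes through the libraries in which they are high, and the count is no support for the members. Centred on genes tagged in every library, controls included, 0 members were higher and 23 core and 18 regulatory genes were lower, against 0.707% and 93.2% of all tested genes. DESeq2 on recovered reads gave an adjusted p to 19 core and 6 regulatory genes and called 5 and 1 of them higher, against 44.8% of all genes with one. It scaled the libraries by the tagged reads themselves and not by all reads, so a rise shared by most genes is scaled down.

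PBA1 had the highest tagged level, with 41.7, 29.5 and 18.6 CPM in enriched libraries 1, 2 and 3 with ADPRC and 0 tagged reads in each of the 3 controls. Against the limit of 3 reads over the control group it was at least 18.6-fold higher. PAC1 and PAG1 were at least 16.4-fold and 15.7-fold higher by the same limit, from 26.5 ± 5.51 and 25.3 ± 3.62 CPM (SD, n = 3). PBF1 had 24.5 ± 3.05 CPM and a tagged read in libraries 2 and 3 of the control (log2 difference 3.85, SE 0.43).

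In the regulatory particle AT4G24820, RPN8A, AT5G23540 and RPN12a led, with 16.0 ± 1.39, 13.0 ± 2.13, 11.8 ± 4.06 and 11.6 ± 5.45 tagged CPM (SD, n = 3) and 0 tagged reads in the controls. They were at least 9.89-fold, 8.04-fold, 7.33-fold and 7.19-fold higher. Their groups did not overlap, but these genes and the leading core genes above were picked for their tagged reads in the same enriched libraries. The folds and the lack of overlap rest on that choice and are no support for the members. Enriched against unenriched RNA with ADPRC gave the same counts, 23 of 23 core and 18 of 18 regulatory genes higher by limma, against 95.7% of 7623 genes tested. These 2 comparisons share the enriched libraries. Centred on genes tagged in every library, 0 members were higher and 14 core and 15 regulatory genes lower, against 0.774% and 79.5% of all tested genes. DESeq2, again scaled by the tagged reads themselves, called 1 of 19 core and 0 of 5 regulatory genes with an adjusted p higher. Of all genes with one it called 37.0% higher.

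In all reads, few members passed the test of enriched against unenriched RNA. Of the 44 genes, PAG1 was higher and ATS9 lower in enriched than in unenriched RNA with ADPRC, and 42 were not called by limma; of 18831 genes tested, 2.99% were higher and 1.96% lower. The levels of 13 members did not overlap between the groups, against 24.8% of all tested genes. The median log2 difference was 0.13 in the core and -0.05 in the regulatory particle, against 0.20 over all genes. Summed levels were 1392 ± 74.9 and 1259 ± 32.9 CPM for the core and 1014 ± 126 and 1079 ± 58.1 CPM for the regulatory particle (enriched and unenriched, SD, n = 3).

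PAG1 was read at 104, 112 and 106 CPM in enriched and 60.8, 54.9 and 62.5 CPM in unenriched libraries, with all enriched values above all unenriched ones. The log2 difference was 0.84 (SE 0.17, limma adjusted p = 0.0155). The call was lost without library 2 or 3 of either group (adjusted p 0.0513 to 0.0996). ATS9 was read at 73.2, 68.0 and 70.5 CPM in enriched and 114, 103 and 122 CPM in unenriched libraries, again without overlap. Its log2 difference was -0.67 (SE 0.16, limma adjusted p = 0.0392), and the call was lost without any one of the 6 libraries (adjusted p 0.0684 to 0.154), and with DESeq2. PAC1 had 106 ± 1.46 against 148 ± 12.0 CPM (SD, n = 3), without overlap, and did not pass (log2 -0.47, limma adjusted p = 0.1). The largest differences among the members in either direction, PAF2 and PBB2, did not pass either. PAF2 was read at 22.1, 25.4 and 25.1 CPM in enriched and 5.29, 16.2 and 10.7 CPM in unenriched libraries, without overlap (log2 1.20, SE 0.38, limma adjusted p = 0.101). PBB2 was read at 32.3, 19.7 and 21.9 against 42.3, 43.6 and 34.0 CPM, also without overlap (log2 -0.69, SE 0.26, limma adjusted p = 0.158).

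**Figure D4:**
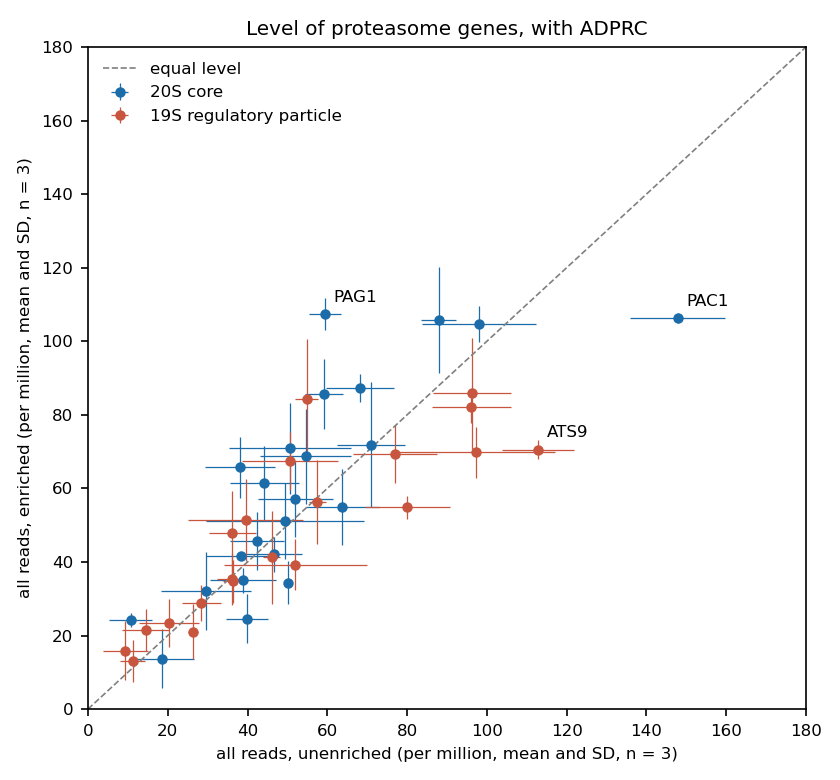
Level of each of the 44 genes in all reads (CPM, mean and SD of 3 libraries) in enriched against unenriched poly(A) RNA with ADPRC; the dashed line marks equal levels. PAG1 lies above it (107 against 59.4 CPM) and ATS9 and PAC1 below it (70.6 against 113 and 106 against 148 CPM).

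Tagged shares also varied among other genes around the proteasome. Of a list of 21 further genes (other paralogues, DSS1, PA200, assembly and activating factors, regulators), 9 were tested for share, of which 4 were higher and 3 lower by limma, against 26.6% and 20.8% of all tested genes. The highest was DSS1(I), which encodes a small acidic lid protein, with 78 of 174, 22 of 92 and 43 of 113 reads tagged, or 35.6% ± 10.7 (SD, n = 3; log2 1.63, SE 0.30, adjusted p = 0.0041 by limma). DSS1(V), AT3G53970 and AT1G67250 were also higher. The lowest was CDC48, an ATPase that pulls ubiquitinated proteins out of complexes, with 0 of 74, 0 of 104 and 2 of 117 reads tagged (log2 -4.31, SE 0.59, adjusted p = 0.00113 by limma).

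UBA1, which encodes a ubiquitin-activating enzyme, and NAC2 were lower as well, at -3.38 and -1.65 on the relative log2 scale. AT5G38650 had 18.6% ± 3.31 (SD, n = 3) and did not pass (log2 0.40, adjusted p = 0.208 by limma). In all reads 0 of the 21 were higher after enrichment and 2 were lower, UBA1 (41.9 ± 1.51 against 74.95 ± 15.2 CPM) and CDC48 (81.0 ± 16.3 against 134 ± 12.9 CPM; SD, n = 3). Tagged reads reach from the poly(A) end to the tag at the 5′ end. Transcript length was not analysed here, and its part in the differences between genes was not tested. Share and level had a Spearman correlation of -0.095 over the 22 core genes, 0.33 over the 19 regulatory genes and 0.20 over all 5494 tested genes, given as a description of genes that share the same libraries.

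The members' mean profile of all reads, the mean log2 level over the 44 genes, ran from 5.43 to 5.72 over the 10 poly(A) libraries. Among 5384 genes compared, those most like it by Pearson correlation were PSY (0.918), MUR1 (0.904) and UBA2A (0.893). PSY encodes phytoene synthase, MUR1 a GDP-mannose dehydratase and UBA2A an RNA-binding protein. Such values can arise by chance among so many genes over 10 libraries, and they were not tested.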

How the data were processed

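RNA of 12-day-old seedlings was measured in 12 libraries by NAD tagSeq. Per gene and library, the authors deposited 2 values, for tagged and for all reads, under the name TPM. Both deposited tables hold what is here called CPM, since the values are scaled to the total of all reads of a library and show no length correction; all 177709 all-read and 38774 tagged values above 0 were whole reads within 0.01 reads (100%). For the aligner, genome build, strand handling and tag-calling rule, the answer is not given in the sources used here. A row naming no gene (1 read) was left out. Symbols and overlaps came from the TAIR10.1 RefSeq table (22102 IDs matched), and 15 members overlap another listed gene. Antisense or overlapping reads and reads of close paralogues may be misassigned.

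Tests used limma 3.58.1 in R 4.3.3, two-sided with trend. Tagged and all-read levels were compared as log2(CPM + pseudocount), with a pseudocount of 0.953 CPM (ADPRC) or 1.23 CPM (enrichment), for genes above 0 in at least 3 libraries; this scale understates changes of low genes. Relative share used log2 of tagged over untagged reads, each plus a pseudocount of 0.5 reads, less the library median, for genes with a mean of at least 20 CPM. Calls had a Benjamini-Hochberg adjusted p under 0.05. Pooled shares have 95% Wilson intervals. Folds against 0 reads use a limit of 3 reads over the group. Depth was at least 1175516 reads per enriched library with ADPRC; members had few tagged reads each, which limits single genes. Alternatives were edgeR 4.0.16 and DESeq2 1.42.0 on the recovered counts, other filters, pseudocounts and centrings, the replicate number as a block and leaving out each library. The limma, edgeR and DESeq2 fits were run on simulated reads of genes with a mean of at least 20 CPM, for levels and for share. Levels of sparse tagged reads, the other filters and centrings, the block and leaving out a library were not simulated.

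The members, lists and tests were chosen with earlier results of these data known. Genes named were, per class, the 4 with most tagged reads, the 3 highest and 3 lowest in relative share, both genes of each planned paralogue pair in which both have a subunit name, the 3 most read genes of the other proteasome list and the 3 most like the members' mean profile. The planned pairs PAB, PBE, RPT4 and RPT6 were not compared, as a gene of each has no subunit name. Further genes (ATS9, RPN10, RPT1A, RPT3, UBA1, NAC2, the PAF pair and others) were named after their values were seen. No gene coordinates, lengths or sequences are given, as no genome of the files' build was used here.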

Additional observations from a re-analysis of the deposited data

How the results depend on the processing

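The core minus regulatory particle difference of 10.7 percentage points was 9.21 to 12.2 when a library was left out and 10.6 to 11.6 under the other settings. The counts across genes moved more, and the cause was not tested except where the setting itself fixes it. Counts are given in the order core, regulatory particle, all genes. With against without ADPRC (23, 18 and 7384 higher, 0 lower), centring on genes tagged in every library gave 0, 0 and 54 higher and 23, 18 and 7114 lower, since that scale sets the members against genes tagged in the controls too. PBA1 was then at -1.19, PAC1 at -1.31, PAG1 at -1.36, PBF1 at -2.29, AT4G24820 at -1.99, RPN8A at -2.28, AT5G23540 at -2.44 and RPN12a at -2.52 on the log2 scale. A mean of at least 10 CPM left 4 core genes and 1215 genes higher, and no regulatory gene to test. That filter takes the mean of tagged CPM over both groups. The members passed it through the enriched libraries with ADPRC, so the count is no support for them. DESeq2, which scaled the libraries by their tagged reads in both comparisons of tagged reads, gave 5, 1 and 1166 higher, and 4 of all genes lower. Leaving out a library gave 23, 17 to 18 and 7234 to 7345 higher, and 0, 0 and 0 to 3 lower. For tagged reads after enrichment (23, 18 and 7297 higher, 0 lower), the same centring gave 0, 0 and 59 higher and 14, 15 and 6063 lower. The filter at 10 CPM, again passed by the members through the enriched libraries, gave 4 core genes and 1237 genes higher. DESeq2 gave 1, 0 and 961 higher. Leaving out a library gave 23, 18 and 6975 to 7238 higher with 0, 0 and 0 to 1 lower.

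In all reads after enrichment (1, 0 and 563 higher, 0, 1 and 369 lower), the filter at 10 CPM gave 3, 0 and 876 higher and 593 genes lower, and DESeq2 gave 0 regulatory genes lower. Leaving out a library gave 0 to 1, 0 and 83 to 293 higher and 0, 0 and 83 to 175 lower. With the replicate number as a block the regulatory count of lower genes was 0 (ATS9, adjusted p = 0.0509 by limma); no other member's call in this comparison changed, and the block gave 23 and 18 higher in both comparisons of tagged reads. Same-numbered libraries did not deviate together (correlations of -0.01 to 0.04), so the numbers were not taken as pairs.

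For the relative share (14, 0 and 1460 higher, 0, 3 and 1143 lower), a pseudocount of 2 reads gave 6 regulatory genes lower. The count over all genes at that setting is not given here, so the 6 cannot be set against genes at large. A mean of at least 100 CPM left 4 core genes and 473 genes higher and 436 lower. The other members called before, core and regulatory, lay below that level and were not tested there. Centring on the ratio of all tagged to all untagged reads gave 6, 0 and 792 higher and 0, 9 and 1796 lower, and turned PBB2 to -0.21, PBC1 to -0.17, AT4G24820 to -0.017 and RPN12a to -0.33. With edgeR, which has that same ratio as its reference, 5, 0 and 766 were higher and 1, 10 and 2202 lower. PBB2 was then at -0.41, PBC1 at -0.080, AT4G24820 at -0.041, RPN8A at -0.0035 and RPN12a at -0.29. With DESeq2 3, 0 and 714 were higher, with PBB2 at -0.049 and RPN12a at -0.034. Members that overlap no other listed gene, a setting added after seeing the data, held 8 of the 14 core genes called higher. Leaving out a library gave 7 to 13, 0 to 1 and 1168 to 1407 higher and 0, 2 and 703 to 942 lower; PBC1 ran from -0.0039 to 0.71 and RPN12a from -0.12 to 0.44.

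The same fit in unenriched libraries, where most genes have 0 tagged reads and values rest on the pseudocount, gave 0 core genes and 0 of all genes higher. There PAA2 was at -0.14, PAC1 at -1.34, PBB2 at -0.0068, PBC2 at -0.23, PBF1 at -0.60, PBG1 at -0.12, AT4G24820 at -0.72, RPN8A at -0.32, AT5G23540 at -0.53 and RPN12a at -1.26, while RPN1A was at 0.14 and AT2G32730 at 0.12. Few tagged reads per gene limit every single value; the lowest genes had 1 to 8 tagged reads over 3 libraries.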
